A study of Mus musculus with 48 samples.

Results

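The mitochondrial ribosomal protein genes are the nuclear genes that encode the protein subunits of the ribosome inside mitochondria. They were taken as the genes of the deposited count table whose symbol is Mrpl or Mrps followed by a number and at most 1 letter. The rule uses names only and found 78 genes of 36935, of which 49 carry a large-subunit symbol (Mrpl) and 29 a small-subunit symbol (Mrps). RNA was sequenced from mouse E14 embryonic stem cells, an established line, and from derivatives of it that lack lysine acetyltransferases of the MYST family. The genotypes were KAT6A-/-; KAT6B-/- (dKO, called the double knockout), KAT6A-/-, KAT6B-/- and E14 wildtype. Every genotype was sampled as stem cells in LIF (day 0), as embryoid bodies without LIF (day 2), as embryoid bodies given 10 µM retinoic acid from day 4 (day 6), and as cells plated on day 8 in neuronal medium (day 15). Each of the 16 groups had 3 libraries, from 3 differentiation experiments, and the labels do not say how many clones stand behind a knockout line.

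Mitochondrial ribosomes translate the few messages of the mitochondrial genome, which encode core subunits of the respiratory chain and of ATP synthase. Their RNA comes from the mitochondrial genome, whereas their proteins are made in the cytosol and imported, so nuclear transcription has to supply a matched set of subunits. Part of the set has bacterial counterparts and part is specific to mitochondria. Symbols do not always give the place in the ribosome: the products of Mrps18a and Mrps30 sit in the large subunit. Stem cells rely largely on glycolysis, and differentiating neurons come to depend on respiration.

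Total gene counts ran from 22.5 to 72.23 M per library, and the 78 genes took 0.178% to 0.421% of them. Levels are given as CPM, each count divided by its library size after TMM scaling of all 48 libraries. Genes differ in length and the files give none, so levels are compared between samples and not between genes. Kat6a transcripts stood at 50.2% to 66.9% of the E14 mean over the 4 days in the KAT6A knockout, and Kat6b transcripts at 59.8% to 96.3% in the KAT6B knockout. In the double knockout Kat6a stood at 59.8% to 75.2% and Kat6b at 65.4% to 94.6%, with the highest Kat6b share of both lines at day 15. Whole-gene counts show neither an edited exon nor the protein. Of the stage markers, 9 of 10 naive and core pluripotency genes were called lower in E14 at day 15 than at day 0, and 9 of 10 neuron genes higher. Replicate 1 of the KAT6B knockout at day 15 stood farthest from its group mates (a median absolute log2 difference of 0.60 per gene, against a median of 0.26 over all libraries). In it the 10 neuron markers summed to 75 CPM and the 10 mesenchyme markers to 19045 CPM. The counts and medians of the members in the KAT6B knockout comparisons with day 15 are also given without it. The double and KAT6A knockouts against E14 at day 15 share a fit with it and were not tested without it.

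The mean summed level of the 78 genes was lower at each later day in all 4 genotypes. From day 0 to day 2 the libraries overlapped in every knockout. The day 2 mean was 94.9%, 92.3% and 92.2% of the day 0 mean in the double, KAT6A and KAT6B knockouts. Double knockout libraries ran from 3526 to 4338 CPM at day 2, against 3810 to 4218 CPM at day 0. In E14 it was 4344 ± 381 CPM at day 0, 3533 ± 86.6 CPM at day 2, 2688 ± 335 CPM at day 6 and 1911 ± 54.7 CPM at day 15 (mean ± SD, n = 3 each). The day 15 sum was 44% of the day 0 sum in E14. It was 51.1% in the double knockout, 47.5% in the KAT6A knockout and 52.5% in the KAT6B knockout. The double knockout libraries summed to 2231, 1922 and 2055 CPM at day 15, against 4218, 3810.1 and 4125 CPM at day 0. Those of the KAT6A knockout summed to 2337, 2049.8 and 1929 CPM at day 15, against 4183, 4682 and 4437 CPM at day 0. Those of the KAT6B knockout summed to 2036, 2173 and 2065 CPM at day 15, against 4093, 3660.2 and 4201 CPM at day 0, and those of E14 to 1902, 1969.9 and 1862 CPM, against 4683, 3931 and 4417 CPM. The day 15 and day 0 libraries did not overlap in any genotype. In E14 the large-subunit symbols summed to 1251 ± 39.6 CPM at day 15, against 2918 ± 245 CPM at day 0. The small-subunit symbols summed to 659.8 ± 15.6 CPM at day 15, against 1426 ± 138 CPM at day 0.

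**Figure D1:**
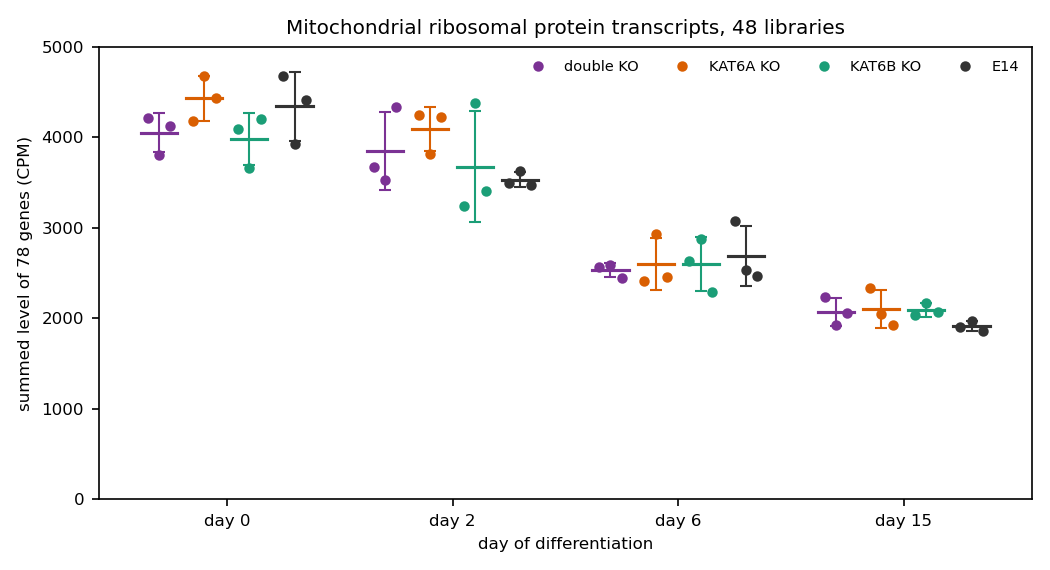
Summed level of the 78 genes in CPM (vertical axis, from 0) in each of the 48 libraries by day, with points for libraries, wide bars for the mean and whiskers for the SD of 3 libraries. In every genotype the 3 libraries of day 15 lie below the 3 libraries of day 0.

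In E14, most members were lower at day 15 than at day 0. By edgeR's quasi-likelihood test, with Benjamini-Hochberg adjustment over 20503 genes and calls at adjusted p under 0.05, 69 of the 78 were called lower, 0 higher and 9 were not called. Over all genes tested, 33.2% were called lower and 36.5% higher. The median log2 change was -1.08 for the 78 genes and 0.08 for all genes tested, and the values of single members ran from -2.08 for Mrpl15 to 0.44 for Mrpl41. By symbol, 42 of 49 large-subunit and 27 of 29 small-subunit genes were called lower. Members called lower in every one of the 6 fits that left out 1 library numbered 65, a count that is not given here for all genes. When libraries were scaled by total count alone, the median of all genes shifted to 0.26 and that of the members to -0.90, with 64 members lower and 2 higher. In bulk RNA, fewer cells of a type and less RNA per cell cannot be told apart. Cycling-cell markers moved with the members: all 10 were called lower, with sums of 947 to 1177 CPM in E14 at day 15, against 3773 to 4344 CPM at day 0. Mesenchyme markers moved the other way, with sums of 1976 to 4753 CPM at day 15, against 316 to 437 CPM at day 0. Their part in the fall was not tested.

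**Figure D2:**
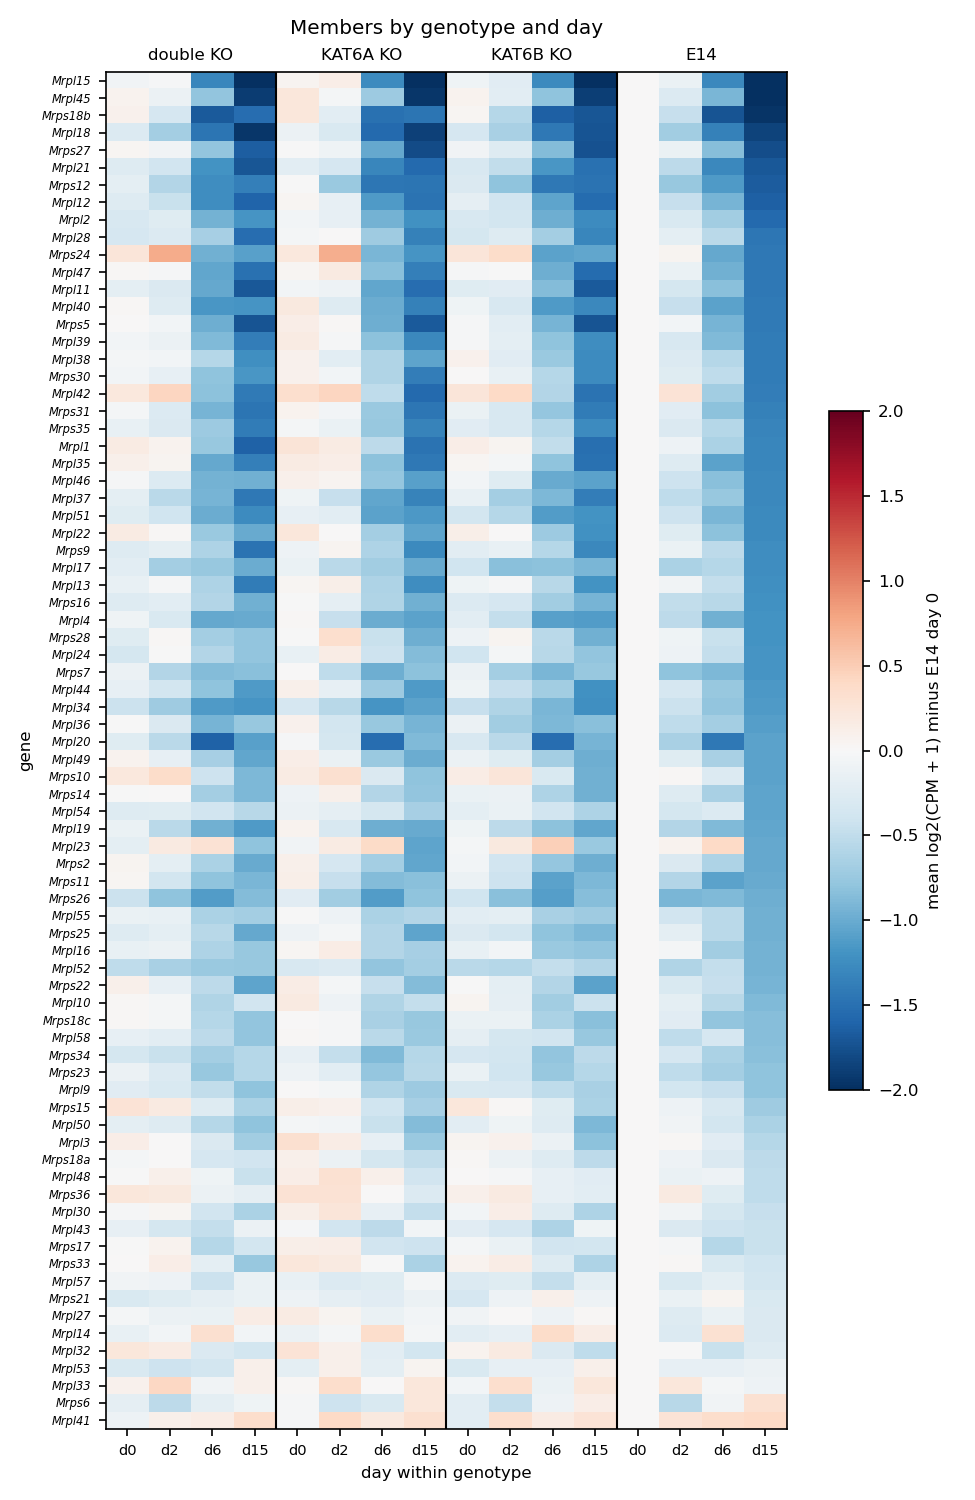
Each row is 1 of the 78 genes and each column a group of 3 libraries, coloured by the mean log2(CPM + 1) minus that of E14 at day 0, with the scale ending at -2 and 2. Rows are ordered by E14 at day 15; most rows turn blue by day 15 in all 4 genotypes, and the lowest rows, which end with Mrps6 and Mrpl41, do not.

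Among large-subunit members, Mrpl15 and Mrpl45 changed most. Mrpl15 (ENSMUSG00000033845, chromosome 1, 4843429 to 4855962, minus strand, GRCm39) encodes a counterpart of a bacterial large-subunit protein. It was at 34.5, 44.9 and 37.8 CPM in E14 at day 15, against 170.3, 169.9 and 172 CPM at day 0. The replicates of day 0 were nearly equal, and the log2 change was -2.08 ± 0.12 (SE, adjusted p = 9.79e-09). Gm37144 overlaps Mrpl15 on the same strand, so part of its counts could belong to that gene. Mrpl45 (ENSMUSG00000018882, chromosome 11, 97206542 to 97220746, plus strand), which encodes a mitochondria-specific protein near the exit of the peptide tunnel, was at 34.6, 41.3 and 38.1 CPM at day 15, against 162, 156 and 173 CPM at day 0. No gene of the table overlaps Mrpl45, and its log2 change was -2.06 ± 0.11 (SE, adjusted p = 5.18e-09). Mrpl18, which encodes a protein that lies by the central protuberance, was at 27.1, 28 and 25.6 CPM at day 15, against 128, 79.4 and 98.2 CPM at day 0. Its change of -1.89 ± 0.19 (SE, adjusted p = 1.12e-06) exceeded the spread among the day 0 libraries.

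The stalk and the reaction centre were represented by Mrpl12, Mrpl10 and Mrpl3. Mrpl12 encodes the stalk protein that recruits translation factors. It was at 62.9, 59.2 and 52.4 CPM in E14 at day 15, against 203, 149.9 and 197 CPM at day 0, a log2 change of -1.62 ± 0.19 (SE, adjusted p = 4.52e-06). Mrpl3, whose bacterial counterpart reaches towards the peptidyl transferase centre, was at 35.1, 30.4 and 34.5 CPM at day 15, against 41.1, 54.2 and 55.8 CPM at day 0. Its log2 change was -0.56 ± 0.15 (SE, adjusted p = 0.00502), and Gm38077 overlaps it on the same strand. Mrpl10, whose product anchors the stalk, was at 60.8, 67.8 and 59.3 CPM at day 15, against 120.5, 113 and 116 CPM at day 0, a change of -0.86 ± 0.11 (SE, adjusted p = 8.06e-06). Mrpl58 encodes a peptidyl-tRNA hydrolase built into the large subunit that rescues stalled ribosomes. It was at 36.7, 35.6 and 31.7 CPM at day 15, against 76.4, 52.8 and 62 CPM at day 0, a log2 change of -0.84 ± 0.17 (SE, adjusted p = 0.000418).

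Among small-subunit symbols, the 3 paralogs of Mrps18 all fell in E14. Mrps18b (ENSMUSG00000024436, chromosome 17, 36221271 to 36227281, minus strand) was at 15, 18.5 and 15.6 CPM at day 15, against 54.6, 70.0 and 75.2 CPM at day 0, a log2 change of -1.98 ± 0.14 (SE, adjusted p = 4.04e-08). Mrps18c was at 13.2, 13.9 and 13.9 CPM at day 15, against 26.1, 22 and 28.5 CPM at day 0, a change of -0.86 ± 0.17 (SE, adjusted p = 0.000348). Mrps18a was at 28, 27.3 and 25.9 CPM at day 15, against 39.8, 38.8 and 39.9 CPM at day 0, a change of -0.51 ± 0.11 (SE, adjusted p = 0.0011). The 95% intervals of the log2 change were -2.26 to -1.71 for Mrps18b, -1.19 to -0.54 for Mrps18c and -0.73 to -0.29 for Mrps18a, and that of Mrps18b met neither of the others. The difference between the paralogs was not tested itself. The 3 products take separate places in the ribosome, Mrps18a in the large subunit and Mrps18b and Mrps18c in the small one.

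Mrps12 encodes the protein by the decoding site, where codon and anticodon pair. It was at 9.56, 11.2 and 8.65 CPM in E14 at day 15, against 46.8, 23.6 and 32.7 CPM at day 0, a log2 change of -1.77 ± 0.26 (SE, adjusted p = 2.73e-05). Mrps27, which encodes a mitochondria-specific protein with pentatricopeptide repeats, was at 18.1, 17.8 and 18.8 CPM at day 15, against 77.1, 58.3 and 60.4 CPM at day 0. The 3 libraries of day 15 lay close together, and the change was -1.80 ± 0.15 (SE, adjusted p = 1.85e-07). Mrps36 carries a ribosomal name, although its product is now placed in the 2-oxoglutarate dehydrogenase complex. It was at 8.75, 11.9 and 9.32 CPM at day 15, against 13.2, 16.5 and 13.8 CPM at day 0, a change of -0.50 ± 0.18 (SE, adjusted p = 0.0204). That call was lost without replicate 2 of day 0 (adjusted p = 0.0695), replicate 1 of day 15 (0.112) or replicate 3 of day 15 (0.0904), with no filter on low counts (0.0639) and with scaling by total count (0.111).

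Members were called lower at each of the 3 steps of the time course. From day 0 to day 2, the first days without LIF, 16 members were called lower and 0 higher in E14, with 12.1% of all genes called lower and 9.5% higher. The median log2 change was -0.28 for the members and -0.02 for all genes. Scaling by total count turned the split of all genes from 1947 higher and 2478 lower to 2443 higher and 1867 lower, and left 12 members lower with a median of -0.19. Mrps26, which encodes a mitochondria-specific small-subunit protein, was at 29.1, 25 and 26.7 CPM at day 2, against 71.1, 38.4 and 49.6 CPM at day 0, a change of -0.98 ± 0.22 (SE, adjusted p = 0.00817). Mrps7, which encodes a protein of the small-subunit head, was at 52.1, 54.9 and 61.8 CPM at day 2, against 109.8, 83.2 and 104 CPM at day 0, a change of -0.82 ± 0.14 (SE, adjusted p = 0.00199). The day 0 libraries were spread more widely than those of day 2, with replicate 1 highest for both genes. Mrps12, Mrpl18, Mrpl20 and Mrpl17, whose products are all counterparts of bacterial proteins, changed by -0.85, -0.73, -0.69 and -0.67 (adjusted p = 0.0279, 0.0156, 0.0236 and 0.0115). These 4 calls were lost in at least 2 of the 6 fits without 1 library. The count itself was 8, 32 and 5 without replicates 1, 2 and 3 of day 0, and 3, 4 and 10 without replicates 1, 2 and 3 of day 2. All 6 of these counts were of lower members, and 3 members were called in each of the 6 fits. The counts of all genes in these fits are not given here, so whether the swing is particular to the members is not known.

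From day 2 to day 6, which spans the addition of retinoic acid, 29 members were called lower and 3 higher in E14, against 19.6% of all genes lower and 22.1% higher. The median log2 change was -0.31 for the members and 0.04 for all genes. With scaling by total count the median of all genes was 0.25, all genes split into 6108 higher and 2594 lower in place of 4530 higher and 4026 lower, and the members into 4 higher and 14 lower with a median of -0.10. Mrps18b was at 19.2, 19.8 and 19 CPM at day 6, against 47.1, 46.4 and 49.1 CPM at day 2, a change of -1.26 ± 0.14 (SE, adjusted p = 1.33e-05). Mrpl15 was at 72.6, 72.3 and 63.3 CPM at day 6, against 147, 166 and 155 CPM at day 2, a change of -1.13 ± 0.12 (SE, adjusted p = 1e-05). In both genes the libraries of each day lay close together and the days were far apart. Mrps5, which encodes a counterpart of a bacterial protein at the messenger RNA entry, was at 53.4, 53.3 and 51.7 CPM at day 6, against 96.3, 104 and 92.6 CPM at day 2, a change of -0.85 ± 0.10 (SE, adjusted p = 1.91e-05). Mrps24, Mrpl42 and Mrpl47 changed by -1.03, -0.94 and -0.81 (adjusted p = 0.0031, 0.000924 and 0.000814), and Urgcp overlaps Mrps24 on the same strand. The count of members called was 21, 20 and 20 without replicates 1, 2 and 3 of day 2, and 30, 20 and 21 without replicates 1, 2 and 3 of day 6. The counts of all genes in these fits are not given here either.

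The members called higher at day 6 were Mrpl14, Mrps6 and Mrpl23. Mrpl14, which encodes a protein at the face between the subunits, was at 29.6, 18.6 and 22.5 CPM at day 6, against 14.1, 16.8 and 14.9 CPM at day 2, a change of 0.67 ± 0.21 (SE, adjusted p = 0.0226). Mrps6, which encodes a counterpart of a bacterial small-subunit protein, was at 25.1, 21.6 and 20.0 CPM at day 6, against 15.5, 17.5 and 13.6 CPM at day 2, a change of 0.56 ± 0.17 (SE, adjusted p = 0.0179). Mrpl23, which encodes a protein at the rim of the exit tunnel, was at 42.5, 48 and 42.5 CPM at day 6, against 36.4, 36.7 and 32 CPM at day 2, a change of 0.38 ± 0.13 (SE, adjusted p = 0.0328). With 1 library left out, 3 or more of the 6 fits no longer called each gene, and adjusted p reached 0.0993, 0.0801 and 0.129. Mrpl23 was also lost with no filter on low counts (0.0709). The groups did not overlap for any of the 3. The genes were picked by calls from the same libraries, so this adds no support to the calls, and overlap was not counted over all genes.

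From day 6 to day 15, which spans plating and neuronal culture, 44 members were called lower and 0 higher in E14. Over all genes, 27.3% were called lower and 27.3% higher. The median log2 change was -0.44 for the members and -0.05 for all genes. With scaling by total count 59 members were lower and 0 higher, and the medians were -0.57 for the members and -0.19 for all genes. All genes then split into 4912 higher and 6655 lower, in place of 5601 higher and 5591 lower. Mrpl23, one of the 3 that were higher at day 6, changed most, with 14.7, 17.1 and 15.9 CPM at day 15, against 42.5, 48 and 42.5 CPM at day 6, a change of -1.47 ± 0.14 (SE, adjusted p = 9.45e-07). Mrpl45 was at 34.6, 41.3 and 38.1 CPM at day 15, against 85.8, 93.1 and 81.7 CPM at day 6, a change of -1.19 ± 0.11 (SE, adjusted p = 9.23e-07). In both genes the 3 libraries of day 15 lay well below those of day 6. Mrps27, Mrpl28, Mrps30 and Mrpl2 changed by -0.97, -0.94, -0.93 and -0.90 (adjusted p = 0.000103, 0.000451, 0.000152 and 0.000932). Mrpl28 and Mrpl2 encode counterparts of bacterial large-subunit proteins, and the product of Mrps30 is specific to mitochondria.

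The calls were spread over the steps. Of the 78, 3 were called lower at each of the 3 steps, 24 at exactly 2 steps, 32 at 1 step and 19 at none. Of the 19 with no call at a single step, 12 were called lower between days 0 and 15. By mean level, 66 members were highest at day 0, 7 at day 2, 3 at day 6 and 2 at day 15 in E14, and 71 were lowest at day 15. In the double, KAT6A and KAT6B knockouts 21, 20 and 22 members were highest at day 2. None of these counts was made over all genes, so whether they are particular to the members is not known. Between days 6 and 15 Mrpl45 was called lower in E14 and Mrps18b was not. For Mrps18b the step from day 6 to day 15 gave -0.24 ± 0.14 (SE, adjusted p = 0.161), with 15, 18.5 and 15.6 CPM at day 15, against 19.2, 19.8 and 19 CPM at day 6. Over all 48 libraries the SD of log2 CPM was largest for Mrpl15, Mrps18b and Mrpl45 (0.91, 0.82 and 0.82) and smallest for Mrpl57, Mrpl27 and Mrpl33 (0.19, 0.21 and 0.22).

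**Figure D3:**
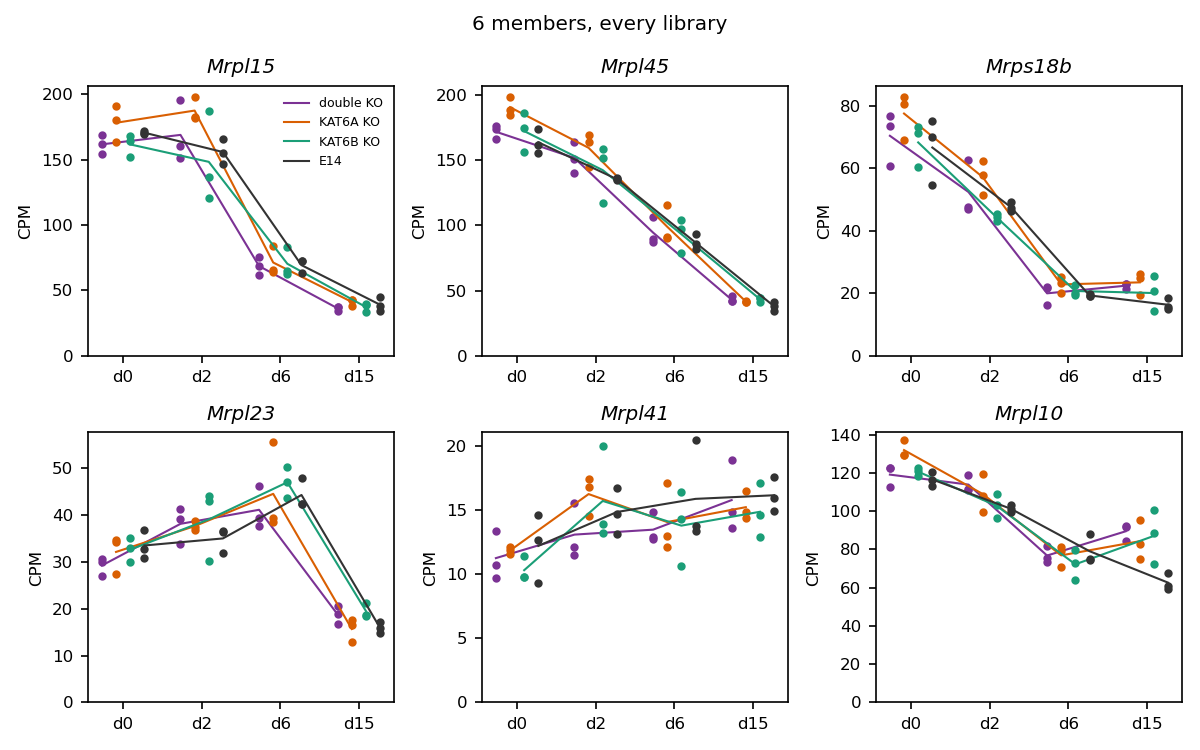
Level in CPM (vertical axis, from 0) of 6 members, chosen after their values were seen, in each library at days 0, 2, 6 and 15, with points for libraries and lines through the means of 3. Mrpl15 and Mrpl45 are lowest at day 15, Mrps18b is near its low by day 6, Mrpl23 peaks at day 6, Mrpl41 does not fall, and Mrpl10 at day 15 is lower in E14 than in all 9 knockout libraries.

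The same fall was seen when each knockout was fitted on its own. Between days 0 and 15, 65 members were called lower and 2 higher in the double knockout, where 34.1% of all genes were lower and 33.6% higher. In the KAT6A knockout 68 were lower and 1 higher, with 32.9% of all genes lower and 35.8% higher. In the KAT6B knockout 53 were lower and 2 higher, with 28.2% of all genes lower and 33.6% higher. Without replicate 1 of the KAT6B knockout at day 15, 54 were lower and 2 higher, with a median of -0.75, where 29.8% of all genes were lower and 32.1% higher. The 2 higher were then Mrpl33 and Mrpl53 (adjusted p = 0.0368 and 0.040), and not Mrpl41 and Mrps6 (0.0785 and 0.196), which were the 2 with all libraries. The median log2 change of the members was -0.87 in the double knockout, -0.94 in the KAT6A knockout and -0.73 in the KAT6B knockout, beside 0.01, 0.10 and 0.15 for all genes. Members called lower in all 4 genotypes numbered 53, where 24.4% of the 19709 genes tested in all 4 were. Another 11 were called lower in exactly 3, a count that was not made over all genes. The cycling-cell markers were lower at day 15 in the knockouts too, with sums of 444 to 1127 CPM in the double knockout, against 3949 to 4045 CPM at day 0.

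Mrpl15 and Mrpl45 had the largest falls in each knockout as well. Mrpl15 was at 37.4, 34.4 and 37.3 CPM at day 15 in the double knockout, against 169, 154 and 162 CPM at day 0, a change of -2.15 ± 0.12 (SE, adjusted p = 1.42e-08). In the KAT6A knockout it was at 42.7, 42.9 and 38.2 CPM, against 164, 191 and 180.2 CPM, a change of -2.06 ± 0.12 (SE, adjusted p = 1.03e-08). In the KAT6B knockout it was at 33.4, 38.8 and 39.8 CPM, against 168, 152 and 164 CPM, a change of -2.0 ± 0.18 (SE, adjusted p = 2.6e-06). Over the 4 genotypes the highest library of day 15 was at 44.9 CPM and the lowest of day 0 at 152 CPM. Mrpl45 was at 42, 45.5 and 41.8 CPM at day 15 in the double knockout, against 176, 166 and 173 CPM at day 0. In the KAT6A knockout it was at 41.4, 41.5 and 42.2 CPM, against 185, 199 and 188 CPM, and in the KAT6B knockout at 41.7, 44.1 and 44.6 CPM, against 174, 156 and 186 CPM. The log2 changes of Mrpl45 were -1.99, -2.14 and -1.87 in the double, KAT6A and KAT6B knockouts (adjusted p = 1.34e-08, 6.47e-09 and 1.21e-06).

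Mrps5 was called lower in all 3 knockouts, at -1.75, -1.79 and -1.63 on the log2 scale in the double, KAT6A and KAT6B knockouts (adjusted p = 4.93e-08, 6.64e-08 and 1.44e-06). Mrps27 gave -1.76, -1.77 and -1.61 (adjusted p = 2.48e-05, 7.16e-08 and 1.66e-06). Mrpl18 gave -1.69 in the double knockout and -1.74 in the KAT6A knockout (adjusted p = 9.21e-06 and 3.14e-07). Mrpl42, which encodes a mitochondria-specific protein, gave -1.88 in the KAT6A knockout and -1.60 in the KAT6B knockout (adjusted p = 2.29e-07 and 0.000586). Mrpl1, a counterpart of a bacterial protein of the large-subunit flank, gave -1.86 in the double knockout (adjusted p = 5.33e-06). The order within the Mrps18 paralogs was as in E14: Mrps18b gave -1.65, -1.67 and -1.64 in the double, KAT6A and KAT6B knockouts, Mrps18c -0.85, -0.74 and -0.64, and Mrps18a -0.35, -0.54 and -0.43, each of them called. Mrpl12, Mrpl3, Mrps12 and Mrpl58 were called lower in each knockout too, with log2 changes from -1.48 for Mrpl12 in the KAT6A knockout to -0.48 for Mrpl58 in the KAT6B knockout. Mrps36 was called lower in the KAT6A knockout (log2 change -0.55 ± 0.16, SE, adjusted p = 0.00674), and gave -0.42 ± 0.19 (SE, adjusted p = 0.072) in the double knockout and -0.20 ± 0.20 (SE, adjusted p = 0.394) in the KAT6B knockout.

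For 8 members no fall was called. Mrpl14, Mrpl27, Mrpl33, Mrpl41, Mrpl53, Mrpl57, Mrps21 and Mrps6 were called lower between days 0 and 15 in none of the 4 genotypes. This count is not given here for all genes. In E14 Mrpl14, Mrpl27, Mrpl57 and Mrps21 changed by -0.29, -0.28, -0.36 and -0.29 on the log2 scale, and Mrpl33 and Mrpl53 by -0.08 and -0.09. The absence of a call thus does not show that a member held its level. Mrpl41 (ENSMUSG00000036850, chromosome 2, 24864129 to 24865110, minus strand), which encodes a mitochondria-specific large-subunit protein, was called higher in all 3 knockouts. It was at 18.9, 13.6 and 14.9 CPM at day 15 in the double knockout, against 10.7, 9.69 and 13.4 CPM at day 0, a change of 0.49 ± 0.19 (SE, adjusted p = 0.0384). In the KAT6A knockout it was at 14.8, 14.4 and 16.5 CPM, against 11.6, 11.9 and 12.1 CPM, a change of 0.42 ± 0.17 (SE, adjusted p = 0.0379). In the KAT6B knockout it was at 17.1, 12.9 and 14.6 CPM, against 9.76, 9.79 and 11.4 CPM, a change of 0.64 ± 0.22 (SE, adjusted p = 0.0232). In E14 it was at 17.6, 15.9 and 15 CPM at day 15, against 12.7, 9.32 and 14.6 CPM at day 0, and the change of 0.44 ± 0.21 (SE, adjusted p = 0.0795) was not called. The knockout calls for Mrpl41 were lost in 3, 6 and 5 of the 6 fits without 1 library, with adjusted p up to 0.176, 0.119 and 0.149 in the double, KAT6A and KAT6B knockouts. With no filter on low counts all 3 were lost (adjusted p = 0.0619, 0.0765 and 0.0954).

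Mrps6 (ENSMUSG00000039680, chromosome 16, 91855158 to 91909115, plus strand) was at 30.8, 20.9 and 25.6 CPM at day 15 in the KAT6B knockout, against 21.2, 17.7 and 21.4 CPM at day 0, where it was called higher (log2 change 0.47 ± 0.18, SE, adjusted p = 0.0414). The groups overlap, and the call was lost without replicate 1 of day 15 (adjusted p = 0.196) and in 4 of the other 5 such fits. It was also lost under DESeq2 (0.0639), with RLE size factors (0.0776), scaling by total count (0.0562) and no filter on low counts (0.183). In E14 Mrps6 was at 34.2, 27.4 and 25.8 CPM at day 15, against 25.7, 19.5 and 24.9 CPM at day 0 (log2 change 0.35 ± 0.17, SE, adjusted p = 0.0776). Slc5a3, Gm49711 and Gm16310 overlap Mrps6 on the same strand, so its counts are uncertain. Mrpl53 was called higher in the double knockout, with 26.1, 17 and 20.5 CPM at day 15, against 15.9, 15.5 and 15.2 CPM at day 0 (log2 change 0.45 ± 0.17, SE, adjusted p = 0.0335). This call was lost in 4 of the 6 fits without 1 library and with no filter on low counts (adjusted p = 0.0562). Mrpl33 stayed between 20.4 and 39 CPM over all 48 libraries.

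The members lay on 17 chromosomes, with 11 on chromosome 11, 8 on chromosome 17 and 7 on chromosome 6 and fewer elsewhere. On GRCm39 42 members overlap no other gene of the table, 27 overlap a gene on the other strand only and 9 overlap a gene on their own strand. The libraries were made with a directional kit, but the strand setting of the counting is not given in the sources used here. Counts of these overlapping members are therefore less certain.

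Promoter sequence was read for the members because they moved together. The RefSeq table (build GRCm38.p6, 250 bases before to 50 bases after each start) holds 75 promoters for 69 of the 78 genes. It was searched on both strands for 4 motifs: GCGCANGCG (NRF1), CCGGAAG (ETS, the family of GABP), CACGTG (E-box) and AAGATGGCG (YY1). Matches can overlap, since the ETS letters end as the YY1 letters begin. The NRF1 letters were in 21.3% of the member promoters and 6.25% of all 32851 promoters of the table. The ETS letters were in 34.7% and 8.86%, the E-box in 9.33% and 7.15%, and the YY1 letters in 10.7% and 1.40%. These are shares of promoters and not of genes. Every promoter of Mrpl2, which has more than 1, holds the E-box, so that gene raises the E-box share of the members. At least 1 of the 4 was in 61.3% of member promoters and 20.3% of all promoters. The member promoters had a median GC content of 58.7%, against 52.7% over all promoters. The sequences shown are those of the 2 members with the largest E14 falls that the table holds, and the 2 members with the highest log2 change. Capitals mark any of the 4 motifs on either strand, and all 4 runs read 5′ to 3′ along the gene's strand.
Mrpl45 (chr11:97315466-97315765, plus strand): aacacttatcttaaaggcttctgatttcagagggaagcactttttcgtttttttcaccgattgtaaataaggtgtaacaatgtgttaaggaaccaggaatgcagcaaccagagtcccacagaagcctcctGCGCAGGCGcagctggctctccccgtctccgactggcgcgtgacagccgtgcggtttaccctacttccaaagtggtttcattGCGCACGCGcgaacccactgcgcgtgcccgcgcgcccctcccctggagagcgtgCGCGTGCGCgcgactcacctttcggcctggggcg
Mrps18b (chr17:35916391-35916690, minus strand): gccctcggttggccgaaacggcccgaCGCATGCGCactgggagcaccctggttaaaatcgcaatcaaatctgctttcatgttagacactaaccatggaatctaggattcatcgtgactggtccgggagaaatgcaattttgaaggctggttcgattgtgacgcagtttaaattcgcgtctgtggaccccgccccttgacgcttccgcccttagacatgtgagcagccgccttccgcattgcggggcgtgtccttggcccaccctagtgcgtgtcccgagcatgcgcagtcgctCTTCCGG
Mrpl41 (chr2:24975049-24975348, minus strand): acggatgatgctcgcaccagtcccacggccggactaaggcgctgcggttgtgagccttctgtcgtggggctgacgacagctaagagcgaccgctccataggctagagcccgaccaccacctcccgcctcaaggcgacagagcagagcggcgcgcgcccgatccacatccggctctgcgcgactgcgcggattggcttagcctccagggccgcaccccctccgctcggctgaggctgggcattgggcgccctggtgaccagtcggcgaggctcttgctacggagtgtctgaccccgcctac
Mrps6 (chr16:92058086-92058385, plus strand): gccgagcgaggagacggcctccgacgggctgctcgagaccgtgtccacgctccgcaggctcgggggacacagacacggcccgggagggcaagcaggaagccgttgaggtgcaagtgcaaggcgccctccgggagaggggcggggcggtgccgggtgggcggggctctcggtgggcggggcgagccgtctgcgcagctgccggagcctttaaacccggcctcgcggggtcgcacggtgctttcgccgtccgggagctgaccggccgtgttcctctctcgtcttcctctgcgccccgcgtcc
The promoter of Mrpl45 holds 3 copies of the NRF1 letters and that of Mrps18b holds 1 copy of the NRF1 letters and 1 of the ETS letters. Those of Mrpl41 and Mrps6 hold none of the 4 in this window. They are the only 2 of the 8 promoters of members called lower in no genotype that hold none: the promoters of Mrpl14, Mrpl27, Mrpl33, Mrpl53, Mrpl57 and Mrps21 hold at least 1. Of the 49 promoters of members called lower in all 4 genotypes, 29 hold at least 1 and 20 hold none. The contrast among the 4 promoters shown thus does not extend to the other members. These are matches of letters, chosen after the values were seen, and not sites of binding.

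Against E14 at the same day, no member passed the test in any knockout. In 12 comparisons of a knockout with E14, edgeR called 0 of the 78 members at adjusted p under 0.05. Over all genes edgeR called few too: in the double knockout 2.09%, 1.12%, 0.0682% and 3.18% of all genes were called in either direction at days 0, 2, 6 and 15. In the KAT6A knockout it was 0%, 0.0102%, 0% and 0%, and in the KAT6B knockout 0.0106%, 0%, 0.0292% and 0.0742%. At day 6 in the double knockout, where same-numbered replicates deviate together, a replicate block called 39 genes in place of 14, and 0 members in both fits. At an unadjusted p under 0.05, the members numbered 13, 2, 2 and 12 in the double knockout at the 4 days, 3, 9, 2 and 8 in the KAT6A knockout, and 18, 0, 1 and 8 in the KAT6B knockout. Over all genes the shares at that threshold were 18.2%, 12.7%, 8.12% and 24.6% in the double knockout, 4.75%, 10.3%, 5.30% and 11.4% in the KAT6A knockout, and 11.8%, 4.06%, 13.0% and 20% in the KAT6B knockout. The members' share was higher than that of all genes in the KAT6B knockout at day 0 (23.1%) and the KAT6A knockout at day 2 (9 of 78), and lower in the other 10 comparisons. DESeq2 called Mrps24 higher in the double knockout at day 2. At day 15 it called Mrpl10 higher and Mrps33, Mrps5 and Mrps9 lower in the double knockout, and Mrpl10 higher and Mrps5 lower in the KAT6B knockout. It called 0 members in the other 9 comparisons. Of all genes with an adjusted p, DESeq2 called 6.31%, 3.36%, 1.38% and 13.5% in the double knockout at days 0, 2, 6 and 15, 0.037%, 0.216%, 0.0146% and 1.73% in the KAT6A knockout, and 1.6%, 0.125%, 2.78% and 9.11% in the KAT6B knockout. The 95% interval of a member's log2 change reached a median of 0.26 to either side at day 0, 0.29 at day 2, 0.32 at day 6 and 0.30 at day 15. The 3 comparisons of a day share the E14 libraries and 1 fit, so replicate 1 of the KAT6B knockout enters all 3 tests at day 15. The coefficient of variation among replicates in the fit was 37.8% at day 15, against 19.3%, 21.0% and 24.6% at days 0, 2 and 6. The double and KAT6A knockouts at day 15 were not tested without that library. Over all genes the double knockout calls were 245 higher and 150 lower at day 0, 161 and 59 at day 2, 8 and 6 at day 6, and 376 and 267 at day 15. With scaling by total count they were 284 higher and 95 lower, 173 and 34, 11 and 5, and 174 and 386, and those of the KAT6B knockout at day 15 were 4 higher and 8 lower in place of 7 and 8.

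**Figure D4:**
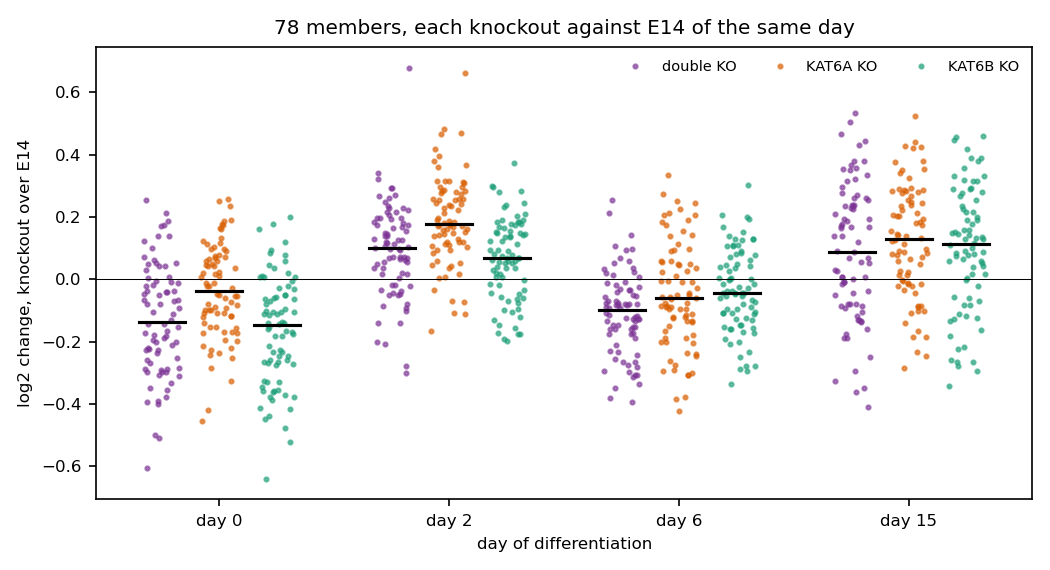
The log2 change of each of the 78 members in the double, KAT6A and KAT6B knockouts over E14 of the same day (vertical axis), with points for genes and bars for the median. Medians lie between -0.15 and 0.18, and no member was called by edgeR.

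The median log2 change of the members was -0.14, -0.04 and -0.15 at day 0 in the double, KAT6A and KAT6B knockouts, and 0.10, 0.18 and 0.07 at day 2. It was -0.10, -0.06 and -0.04 at day 6 and 0.09, 0.13 and 0.11 at day 15. For all genes these medians lay between -0.02 and 0.05. With scaling by total count the medians were -0.08 and -0.03 in the double knockout at days 0 and 6 and -0.03 in the KAT6A knockout at day 6. Those of day 15 were -0.09, 0.01 and -0.00, so the sign at day 15 depends on the scaling in the double and KAT6B knockouts. The medians of all genes moved too with that scaling, to -0.17, -0.10 and -0.07 at day 15, each below that of the members. With RLE size factors the members' medians at day 15 were 0.05, 0.11 and 0.07, and without replicate 1 of the KAT6B knockout that of the KAT6B knockout was 0.09. At day 0 the summed level was 93.3%, 102% and 91.7% of the E14 mean in the double, KAT6A and KAT6B knockouts, and at day 2 109%, 116% and 104%. At day 0 the sums overlapped, with the double knockout libraries at 4218, 3810.1 and 4125 CPM and those of E14 at 4683, 3931 and 4417 CPM. At day 2 those of the KAT6A knockout did not overlap E14, at 4249, 3814 and 4220.3 CPM, against 3493, 3633 and 3474 CPM in E14. There 72 of the 78 members had a positive log2 change, a count that is not given here for all genes, whose median was 0.01. Like sets were shifted too: the median was 0.16 for cytosolic ribosomal protein genes and 0.16 for nuclear oxidative phosphorylation genes, beside 0.18 for the members. Naive and core pluripotency markers summed to 2738 to 3566 CPM there, against 2059 to 2604 CPM in E14, and their part was not tested. At day 15 the summed levels of the KAT6B knockout did not overlap E14 either, at 2036, 2173 and 2065 CPM, against 1902, 1969.9 and 1862 CPM in E14. As shares of the total count they did overlap, at 0.207%, 0.203% and 0.193%, against 0.199%, 0.206% and 0.199% in E14. The sums were not tested.

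At day 0 the smallest p-values belonged to Mrpl52 and Mrpl34, large-subunit genes. Mrpl52 was at 29.8, 32.6 and 27.9 CPM in the double knockout, against 64.8, 31.7 and 38.4 CPM in E14 (log2 change -0.60 ± 0.20, SE, adjusted p = 0.137). In the KAT6B knockout it was at 27.5, 32.4 and 28.3 CPM (log2 change -0.64 ± 0.20, SE, adjusted p = 0.297). Replicate 1 of E14 stood apart from its mates in this gene, and the groups overlap. Mrpl34 was at 39.1, 32.9 and 33.6 CPM in the double knockout, 35.4, 42.4 and 36 CPM in the KAT6A knockout and 35, 29.4 and 39.5 CPM in the KAT6B knockout, against 60.3, 35.7 and 50.5 CPM in E14. Its adjusted p was 0.143, 0.93 and 0.311. Mrpl21 in the KAT6A knockout gave -0.29 ± 0.13 (SE, adjusted p = 0.93). Without replicate 2 of E14 at day 0, 10 members were called lower in the double knockout and 10 in the KAT6B knockout, Mrpl52 and Mrpl34 among them in both, where 5.55% and 3.38% of all genes were called lower. Replicate 2 had the lowest summed level of the 3 E14 libraries, at 3931 CPM.

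At day 2 the smallest p-values belonged to Mrps24, Mrps10 and Mrpl58. Mrps24 (ENSMUSG00000020477, chromosome 11, 5653983 to 5665680, minus strand), whose product is a counterpart of a bacterial small-subunit protein, was at 137, 145 and 144 CPM in the double knockout, 150.2, 135 and 135 CPM in the KAT6A knockout and 78.8, 166 and 98 CPM in the KAT6B knockout, against 96.2, 92.2 and 74.9 CPM in E14. All 3 libraries of the double and KAT6A knockouts lay above those of E14, and those of the KAT6B knockout overlapped them. The log2 changes were 0.68 ± 0.20 (SE, adjusted p = 0.12), 0.66 ± 0.20 (SE, adjusted p = 0.414) and 0.37 ± 0.19 (SE, adjusted p = 1). Mrps10, another counterpart of a bacterial protein, was at 60.1, 61.8 and 67 CPM in the double knockout, against 47.7, 51.9 and 47.7 CPM in E14 (log2 change 0.34 ± 0.11, SE, adjusted p = 0.165), and gave 0.23 ± 0.11 (SE, adjusted p = 1) in the KAT6B knockout. Mrpl58 was at 68.9, 56.7 and 60.7 CPM in the KAT6A knockout, against 41.5, 47.1 and 43.4 CPM in E14 (log2 change 0.48 ± 0.14, SE, adjusted p = 0.414).

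At day 6 the members with the smallest p-values were all lower in the knockout. Mrpl34 was at 22.5, 20.5 and 21.1 CPM in the double knockout and 18.7, 22.1 and 20.9 CPM in the KAT6A knockout, against 31.1, 23.5 and 27.2 CPM in E14, with adjusted p of 0.566 and 0.809. Mrps30 in the double knockout gave -0.35 ± 0.15 (SE, adjusted p = 0.582), and Mrpl37 in the KAT6A knockout -0.31 ± 0.13 (SE, adjusted p = 0.809). In the KAT6B knockout Mrps25 gave -0.28 ± 0.11 (SE, adjusted p = 0.322) and Mrpl57 -0.29 ± 0.15 (SE, adjusted p = 0.423).

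At day 15 the smallest p-value in each knockout belonged to Mrpl10 (ENSMUSG00000001445, chromosome 11, 96932386 to 96940039, plus strand), whose product anchors the stalk proteins to the large subunit. It was at 92.3, 84.4 and 91.8 CPM in the double knockout, 95.5, 82.6 and 74.9 CPM in the KAT6A knockout and 72.2, 100.4 and 88.7 CPM in the KAT6B knockout, against 60.8, 67.8 and 59.3 CPM in E14. All 9 knockout libraries lay above the 3 E14 libraries. The log2 changes were 0.50 ± 0.13 (SE, adjusted p = 0.0605), 0.43 ± 0.13 (SE, adjusted p = 0.32) and 0.46 ± 0.13 (SE, adjusted p = 0.108) in the double, KAT6A and KAT6B knockouts. DESeq2 called Mrpl10 in the double knockout (adjusted p = 0.0179) and in the KAT6B knockout (0.0445), and edgeR called it in the KAT6B knockout without replicate 1 of that group (0.0325), where 4.28% of all genes were called higher. At days 0, 2 and 6 each knockout overlapped E14 in this gene, except that the double knockout at day 2 and the KAT6A knockout at day 0 lay above it. At day 15 mesenchyme markers had sums of 7781 to 9517 CPM in the double knockout, 3121 to 7519 CPM in the KAT6A knockout and 5092 to 19045 CPM in the KAT6B knockout, against 1976 to 4753 CPM in E14. Neuron markers summed to 173 to 1049 CPM, 413 to 1595 CPM and 75 to 1124 CPM in the same knockouts, against 1671 to 2978 CPM in E14. The part of such differences in the level of Mrpl10 was not tested.

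Mrpl24, whose product sits near the exit tunnel, came next at day 15 in the double and KAT6B knockouts. It was at 45.3, 43.2 and 47.2 CPM in the double knockout and 42.5, 49.6 and 43.9 CPM in the KAT6B knockout, against 30.7, 38.9 and 33.7 CPM in E14. The libraries of both knockouts lay above those of E14, and the changes were 0.38 ± 0.12 (SE, adjusted p = 0.107) and 0.38 ± 0.12 (SE, adjusted p = 0.146). Mrpl33 in the KAT6A knockout was at 27.4, 33 and 28.6 CPM, against 23, 23.2 and 23.6 CPM in E14 (log2 change 0.35 ± 0.12, SE, adjusted p = 0.366). In the set of Mrps18a, Mrps18b, Mrps18c, Mrpl12, Mrps12, Mrpl3, Mrps36 and Mrpl58, the log2 changes at day 15 ran from -0.27 to 0.52 over the 3 knockouts, with none called.

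Whether the fall over time differed between a knockout and E14 was tested as an interaction of genotype and day. By edgeR 0 of the 78 members were called in each of the 3 interactions, against 2.51%, 0% and 0.0436% of all genes in the double, KAT6A and KAT6B knockouts. Of all genes the double knockout had 214 higher and 306 lower, and 88 higher and 554 lower with scaling by total count. At an unadjusted p under 0.05 there were 13, 2 and 9 of the 78 members, a smaller share than the 20.9%, 9.76% and 14.5% of all genes. DESeq2 called Mrpl10 and Mrpl54 in the double knockout (adjusted p = 0.0335 and 0.0265) and Mrpl24 in the KAT6B knockout (0.0363), each a smaller fall than in E14, and 0 members in the KAT6A knockout. Of all genes it called 8.76%, 0.987% and 3.99% in the double, KAT6A and KAT6B knockouts. The smallest edgeR p-values belonged to Mrpl10 (log2 change 0.48 ± 0.14, SE, adjusted p = 0.0871) and Mrpl24 (log2 change 0.76 ± 0.23, SE, adjusted p = 0.094) in the double knockout. In the KAT6A knockout they belonged to Mrps5 (log2 change -0.40 ± 0.15, SE, adjusted p = 0.473) and Mrpl24 (log2 change 0.51 ± 0.21, SE, adjusted p = 0.484), and in the KAT6B knockout to Mrpl24 (log2 change 0.71 ± 0.22, SE, adjusted p = 0.186) and Mrpl17 (log2 change 0.65 ± 0.24, SE, adjusted p = 0.266). The median over the members was 0.20, 0.10 and 0.15, a smaller fall than in E14, beside -0.02, -0.01 and -0.07 for all genes. With scaling by total count it was -0.02, 0.02 and 0.11, beside -0.23, -0.09 and -0.11 for all genes. In the KAT6B knockout the members' median was 0.28 with RLE size factors, beside 0.06 for all genes. Without replicate 1 of the KAT6B knockout at day 15 it was 0.23, with 0 members called. Without replicate 2 of E14 at day 0, Mrpl2 and Mrpl54 were called in the double knockout (adjusted p = 0.0250 and 0.0460), where 2.98% of all genes were called higher. The 95% interval of a member's interaction reached a median of 0.42, 0.43 and 0.44 to either side.

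Beside other gene sets of E14, the median of the members lay between those of the cytosolic ribosome and the respiratory chain. All 83 cytosolic ribosomal protein genes were called lower at day 15 than at day 0, with a median log2 change of -1.43. Of 78 nuclear oxidative phosphorylation genes tested, 52 were called lower and 2 higher, with a median of -0.48. From day 0 to day 2, 1 cytosolic gene was called lower and 4 higher, beside 16 lower members. From day 6 to day 15, 82 of the 83 cytosolic genes were called lower. The difference between the sets was not tested.

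**Figure D5:**
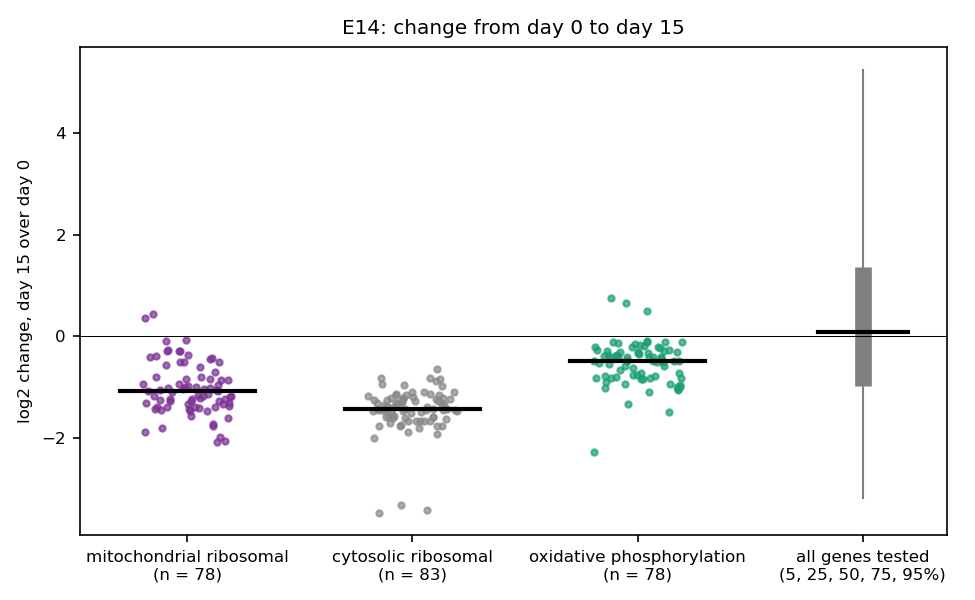
The log2 change from day 0 to day 15 in E14 (vertical axis, day 15 over day 0) of mitochondrial ribosomal, cytosolic ribosomal and oxidative phosphorylation genes, with points for genes and bars for medians, beside the spread of all 20503 genes tested (thick bar 25% to 75%, thin line 5% to 95%). The medians are -1.08, -1.43 and -0.48, and that of all genes is 0.08.

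The genes that make, regulate and use this ribosome mostly fell with it in E14. The 5 subunit genes with other symbols were all called lower, with a median of -1.04. Among them Ptcd3 was at 50.2 ± 5.18 CPM at day 15, against 161 ± 38.3 CPM at day 0 (log2 change -1.63 ± 0.16, SE, adjusted p = 6.61e-07), and Gadd45gip1 at 21.7 ± 3.23 CPM at day 15, against 65.8 ± 13.5 CPM at day 0 (log2 change -1.57 ± 0.17, SE, adjusted p = 1.43e-06). Of 26 assembly factors 21 were called lower and 0 higher. The largest changes among them were in Rpusd4, a pseudouridine synthase (log2 change -1.69 ± 0.16, SE, adjusted p = 4.86e-07), and Gtpbp10, a GTPase of large-subunit assembly (log2 change -1.46 ± 0.21, SE, adjusted p = 2.23e-05). Of 15 translation factors 12 were called lower, led by the elongation factor gene Tsfm (log2 change -1.66 ± 0.22, SE, adjusted p = 1.05e-05) and Lrpprc, which stabilises mitochondrial messages (log2 change -1.45 ± 0.11, SE, adjusted p = 4.68e-08). Of 20 genes of mitochondrial tRNA charging 15 were called lower and 2 higher. The higher ones were Wars2, the tryptophan enzyme, at 12.6 ± 0.724 CPM at day 15, against 8.08 ± 1.77 CPM at day 0 (log2 change 0.67 ± 0.19, SE, adjusted p = 0.00571), and Gatc, a subunit of the glutamine amidotransferase (log2 change 0.47 ± 0.18, SE, adjusted p = 0.0362).

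Genes of mitochondrial DNA replication and transcription fell in 9 of 12 cases and rose in 1. Mgme1, a nuclease of that DNA, was at 5.72 ± 0.645 CPM at day 15, against 37.6 ± 2.56 CPM at day 0 (log2 change -2.67 ± 0.15, SE, adjusted p = 7.3e-09), and Tefm, the elongation factor of mitochondrial transcription, changed by -1.83 ± 0.16 (SE, adjusted p = 1.93e-07). Mterf2 was the 1 higher (log2 change 0.61 ± 0.26, SE, adjusted p = 0.0492). Among 11 regulators of mitochondrial biogenesis 8 were called lower, with Mycn at 65.7 ± 16.1 CPM at day 15, against 445 ± 139 CPM at day 0 (log2 change -2.72 ± 0.33, SE, adjusted p = 5.8e-06). Gabpa, whose product binds the ETS letters, changed by -1.54 ± 0.13 (SE, adjusted p = 2.03e-07), and Nrf1, whose product binds the NRF1 letters, by -1.10 ± 0.12 (SE, adjusted p = 1.34e-06). A link between the levels of Gabpa or Nrf1 and those of the members was not tested. The 1 regulator called higher was Ppargc1a, a coactivator of respiratory genes. It had 0 counts in the 3 E14 libraries of day 0 and 14 ± 4.18 CPM at day 15. This was at least 405-fold higher, against a floor of 3 counts over the day 0 group that covers counting error only.

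In the knockouts the same lists were counted between days 0 and 15. Subunits with other symbols were called lower in 5 of 5 cases in the double knockout, 5 of 5 in the KAT6A knockout and 3 of 5 in the KAT6B knockout. Assembly factors were called lower in 17, 20 and 15 of 26 cases, and translation factors in 10, 9 and 9 of 15. Synthetases and related genes were called lower in 15, 12 and 14 of 20 cases. Genes of mitochondrial DNA were lower in 8, 9 and 7 of 12 cases and biogenesis regulators in 8, 8 and 7 of 11. The cytosolic ribosomal protein genes were lower in 83, 83 and 78 of 83 cases. The nuclear oxidative phosphorylation genes were lower in 41 of 81, 41 of 80 and 21 of 79 cases and higher in 5, 4 and 4. Over all genes 34.1%, 32.9% and 28.2% were called lower in the same knockouts.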

How the data were processed

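Per the labels, 1 table was made from 48 rRNA-depleted, directional libraries. The authors deposited raw whole-number counts per gene; per the submitters' processing notes, reads were aligned with HISAT2 to GRCm39. Which program counted the reads, whether it used strand, and the gene annotation behind it were not stated in labels or headers. Of 36983 rows, 48 that repeat an identifier were left out. With totals of 22.5 to 72.23 M counts, every p-value rests on the spread among 3 libraries a group.

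The test was that of edgeR 4.0.16, run under R 4.3.3 (TMM scaling, minimum count 10 and minimum total 15 by group, robust quasi-likelihood F test, Benjamini-Hochberg adjustment over all genes tested, calls at adjusted p under 0.05). The fits held the 12 libraries of a genotype, of a day, or of a knockout and E14 at days 0 and 15, and gave 22 comparisons. The SE is the size of the log2 change over the square root of F. Intervals reach 1.96 SE to either side and, with so few libraries, are narrower than 95% intervals of the F test. Such an interval can leave out 0 where the F test gives an unadjusted p over 0.05. Means and SDs are of CPM with TMM scaling over all 48 libraries. The edgeR and DESeq2 tests were run on simulated counts for some of the 22 comparisons, and the other steps were not. Alternatives were RLE size factors, scaling by total count, no filter on low counts, a replicate block, DESeq2 1.42.0, and leaving out each library.

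Named members are, per comparison and direction, the 6 called with the largest change and a mean of at least 5 CPM, or the 2 with the smallest p where none was called, plus 8 members described throughout, up to 2 called genes per pathway list, and the 3 most and 3 least variable members. A part of the rule that ranked genes by mean level was not used, since no gene lengths were given. Other names were chosen after their values were seen. For a member named by its p-value or call, groups that do not overlap in the same libraries add no support. The members and lists were chosen with earlier results of these data known. Same-numbered replicates were checked for shared deviations in 19 comparisons. All 3 correlations passed 0.1 in 1 of them, the double knockout against E14 at day 6, so the numbers were taken to pair samples there only. The block was fitted to all 12 libraries of that day, however, so it also pairs the other knockouts. Their correlations with E14 there included -0.14 for replicate 1 of the KAT6A knockout and -0.08 for replicate 3 of the KAT6B knockout. No label ties a number to an experiment.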

Additional observations from a re-analysis of the deposited data

How the results depend on the processing

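No called result changed its direction under the alternatives run. With the replicate block the members called were 0 higher and 20 lower for E14 day 2 against day 0. For day 6 against day 2 they were 3 higher and 31 lower. For day 15 they were 0 higher and 46 lower against day 6 and 0 higher and 69 lower against day 0. All genes split in the same order into 2247 higher and 2764 lower, 4604 and 4293, 5800 and 5698, and 7604 and 6841. With the block 2 members were higher and 65 lower over time in the double knockout. In the KAT6A knockout 1 was higher and 68 lower, and in the KAT6B knockout 3 were higher and 54 lower. All genes split there into 7103 higher and 7262 lower, 7262 and 6800, and 6849 and 5986. The block called 0 members in each of the 15 comparisons with E14. Outside the double knockout at day 6 the samples were not taken as paired, and the lowest and highest correlations were -0.27 and 0.48. Missing the rule on correlations does not show that samples are unpaired, so the pairing there is not known. With the block Mrps6 in the KAT6B knockout over time had an adjusted p of 0.0510. Over all genes the block called 0 in place of 643 in the double knockout at day 15, 605 in place of 395 at day 0, 371 in place of 6 in the KAT6B knockout at day 6, 26 in place of 2 at day 0 and 0 in place of 15 at day 15.

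Scaling by total count gave 18 members called for E14 day 6 against day 2, in place of 32. DESeq2 called 1 member in the double knockout at day 2, 4 at day 15 and 2 in its interaction, and 2 in the KAT6B knockout at day 15 and 1 in its interaction, in place of 0. Over all genes DESeq2 called 1125, 658, 256 and 2724 in the double knockout at days 0, 2, 6 and 15, in place of 395, 220, 14 and 643. It called 233, 23, 548 and 1839 in the KAT6B knockout in place of 2, 0, 6 and 15, and 7, 35, 3 and 335 in the KAT6A knockout in place of 0, 2, 0 and 0. Leaving out 1 library gave 3 to 32 members for E14 day 2 against day 0 and 20 to 30 for day 6 against day 2. It gave 0 to 10 for the double knockout and 0 to 10 for the KAT6B knockout against E14 at day 0, 0 to 1 for the KAT6B knockout at day 15 and 0 to 2 for the interaction of the double knockout. The counts for day 15 against day 0 moved less, with 65 to 69 in E14 and 60 to 67, 62 to 69 and 50 to 58 in the double, KAT6A and KAT6B knockouts. Counts of all genes are given above for some of the fits without 1 library only. The cause of these differences between settings was not tested. Whether depth or the spread among libraries limits the calls was not compared.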
